A study of Ovis aries with 20 samples.

Results

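SOX10, ERBB3, NGFR, PHOX2A, NEFL, NEFM and ACHE are genes of the nerves, ganglia and Schwann cells that run through the wall of the airway. They are 7 of the 24478 genes in the deposited tables, were picked by symbol, and all 7 had enough counts to be tested among 20097 genes. Frozen pieces of sheep trachea, labelled epithelial tissue, were the source of total RNA for sequencing. Donors were CF animals, which carry the disease cystic fibrosis that follows from losing the anion channel CFTR, and normal animals (WT). Each genotype was sampled at days 65, 80, 100, 120 and 147, the last being birth, with 2 samples in each of the 10 groups and 20 in all. The labels do not state the CFTR allele, so the CF animals are described here by genotype alone. The design asks how each gene differed between CF and WT at matched ages, and how it changed with age.

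The trachea is innervated by the vagus nerve and by small ganglia built from neural crest cells that migrate into its wall before birth. SOX10 is the transcription factor that specifies and maintains the Schwann cell lineage, ERBB3 is the receptor through which neuregulin from axons keeps Schwann cell precursors alive, and NGFR is the low affinity neurotrophin receptor p75 of neural crest cells and immature Schwann cells. PHOX2A is a homeodomain factor of autonomic neurons, NEFL and NEFM are the light and medium subunits of the neurofilaments of axons, and ACHE is the enzyme that breaks down acetylcholine. None of these is restricted to nerve: ERBB3 is also made by epithelium and melanocytes, NGFR by basal cells of the airway, and ACHE by skeletal muscle.

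The 7 genes did not move as a group. ACHE was higher in CF, at 15.5 ± 18.0 CPM (counts scaled to library depth) in CF libraries and 2.98 ± 1.15 CPM in WT libraries (SD, n = 10 each), and NEFM was lower, at 3.69 ± 1.63 CPM in CF and 6.78 ± 2.65 CPM in WT. Without CF day 80 replicate 1, a library that held skeletal muscle, ACHE in CF was 9.98 ± 4.11 CPM (SD, n = 9). NEFL also averaged less in CF than in WT. That goes against the description under which the genes were brought together, as genes higher in CF. With age, NGFR, PHOX2A, NEFL and NEFM fell, while SOX10, ERBB3 and ACHE did not pass the test for any change over the 5 ages.

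Total counts ran from 42372433 to 87651829 per library, and CPM are scaled to these depths. A few libraries held genes of other tissues. The summed thyroid markers reached 109450 CPM in WT day 80 replicate 2, the liver markers 18461 CPM in CF day 65 replicate 2, the skeletal muscle markers 38309 CPM in CF day 80 replicate 1, and the thymus markers 277 CPM in WT day 65 replicate 2. This last library also held skeletal muscle markers at 1157 CPM. Summed epithelial markers (10 of 10 genes found, none at 0 in any library) ran from 935 to 3535 CPM in CF, with a median of 2825, and from 1636 to 5836 CPM in WT, with a median of 3446. The WT day 100 libraries share 1 sample identifier in the labels, as do the CF day 147 libraries, and WT day 65 replicate 2 shares one with CF day 100 replicate 2. Nothing in the labels says that the samples of a group are separate animals, so each p-value speaks of the scatter among these samples only, and this scatter may be technical. In bulk tissue, fewer cells of a type and less RNA per cell cannot be told apart.

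Per kilobase of summed exon length (FPKM), ERBB3 was the most abundant of the 7, at 27.4 ± 9.03 FPKM over the 20 libraries (SD). NGFR at 4.59 ± 3.53 FPKM and ACHE at 4.49 ± 6.79 FPKM followed, and these levels did not differ beyond their spread. Then came NEFM at 1.52 ± 0.772 FPKM, SOX10 at 0.993 ± 0.609 FPKM and NEFL at 0.990 ± 0.926 FPKM, again with overlapping spreads. PHOX2A was the least abundant, at 0.225 ± 0.303 FPKM. In CF alone ACHE came second with 7.54 ± 8.75 FPKM, against 1.44 FPKM in WT, where it came behind NGFR with 3.97 FPKM and NEFM with 1.96 FPKM. Without CF day 80 replicate 1, which held skeletal muscle, ACHE in CF was 4.84 ± 2.00 FPKM (SD, n = 9), near NGFR at 4.64 ± 3.61 FPKM in the same libraries. ERBB3, which epithelium also makes, was far above SOX10, the factor of the Schwann cell lineage, in both genotypes.

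**Figure D1:**
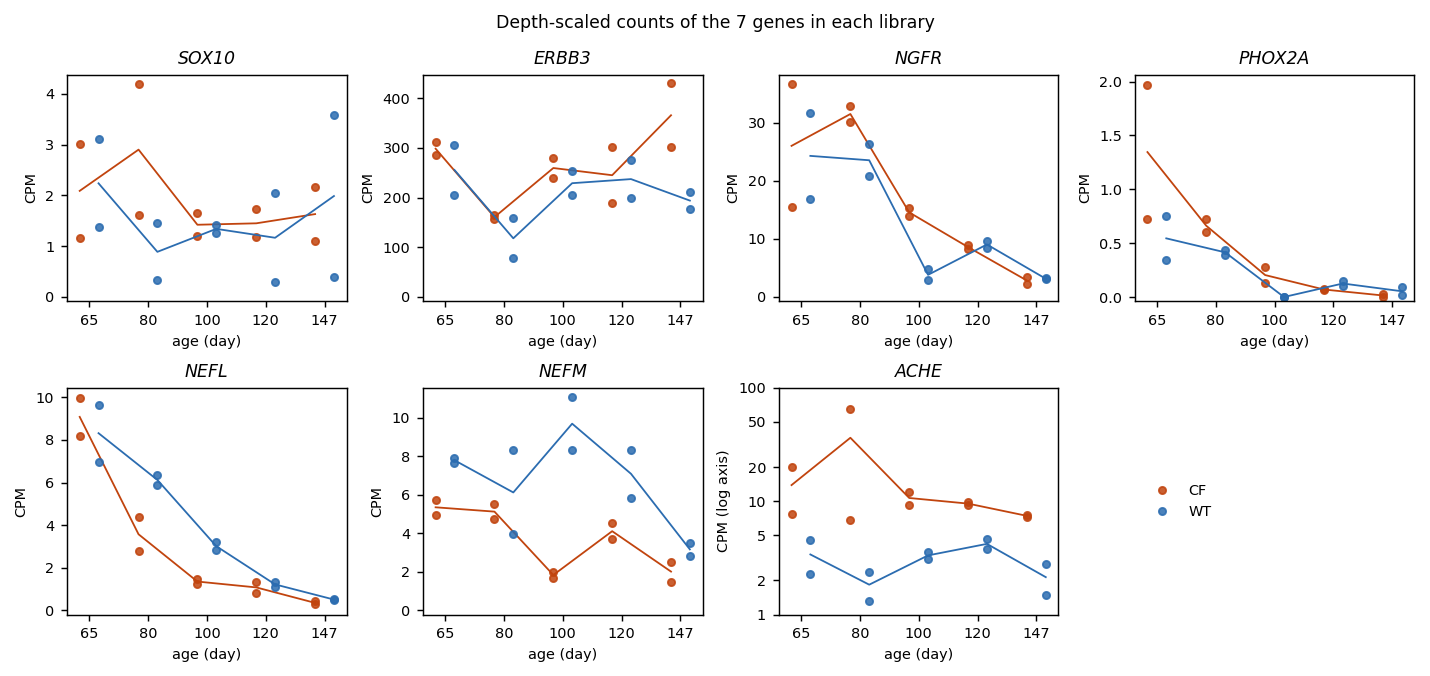
Level of each of the 7 genes in every library in CPM against age in days (ages evenly spaced), with CF left of WT at each age; points are libraries and lines join group means, and the axis of ACHE is logarithmic. ACHE lies higher in CF than in WT at all 5 ages, NEFM lies lower in CF at 4 of them, and NGFR, PHOX2A and NEFL decline in both genotypes.

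Neither SOX10 nor ERBB3 passed between genotypes or with age. As ERBB3 is also made by epithelium, its values cannot be read as those of the Schwann cell lineage alone. SOX10 was measured in CF at 1.16 and 3.01 CPM at day 65, 4.18 and 1.62 at day 80, 1.64 and 1.20 at day 100, 1.17 and 1.73 at day 120, and 1.11 and 2.16 at day 147. In WT it was at 1.37 and 3.11 CPM at day 65, 0.328 and 1.45 at day 80, 1.26 and 1.43 at day 100, 2.04 and 0.288 at day 120, and 3.58 and 0.398 at day 147. The replicates of the WT groups at days 80, 120 and 147 lay far apart. The genotypes overlapped at every age but day 80, where both CF libraries were above both WT libraries, as in 11.5% of tested genes. The log2 fold change of CF over WT, averaged over the ages, was 0.34 ± 0.47 (SE) with an adjusted p of 0.842 (edgeR's quasi-likelihood test, Benjamini-Hochberg over all 20097 genes). The 3 WT libraries with the lowest SOX10 levels, 0.398, 0.328 and 0.288 CPM, were also the 3 in which longer genes read lowest relative to shorter ones, with slopes of log2 level on log2 length of -0.24, -0.18 and -0.17. WT day 100 replicate 1 and CF day 120 replicate 1, with slopes of -0.15 and -0.14, held 1.26 and 1.17 CPM of SOX10. Without all 5 libraries of slope below -0.12 (1 CF, 4 WT) the fold change was -0.11. SOX10 itself has 1724 bases of summed exons, and the part of gene length in its values was not tested. The gene lies on chromosome 3 from 213503019 to 213512467, minus strand, and shares 62 exon bases with the antisense locus LOC105609490. The sources used here do not state whether counting used strand, so reads in these bases could belong to either gene.

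ERBB3, the neuregulin receptor, had the smallest spread relative to its mean of the 7 genes. CF libraries held 312 and 285 CPM at day 65, 165 and 157 at day 80, 280 and 239 at day 100, 189 and 301 at day 120, and 430 and 301 at day 147. WT libraries held 305 and 206 CPM at day 65, 158 and 77.7 at day 80, 205 and 253 at day 100, 275 and 199 at day 120, and 212 and 176 at day 147. Day 80 was low in both genotypes, and only at day 147 were both CF libraries above both WT libraries, a pattern that 15.6% of all tested genes showed at that age. The difference was 0.36 ± 0.16 (log2, SE) over the mean of the ages (adjusted p = 0.410, edgeR) and 0.91 ± 0.35 at day 147 (adjusted p = 0.510). Summed melanocyte markers (8 of 8 found, with TYRP1, DCT, TYR and SLC45A2 at 0 in 13, 8, 6 and 6 of 20 libraries) ran from 55.0 to 205 CPM in CF and from 31.5 to 142 CPM in WT. The sum was carried by KIT, at up to 185 CPM in CF and 123 CPM in WT, and by MITF, while TYR, TYRP1, DCT, MLANA and SLC45A2 were at 1.32 CPM or less in every library. Neither their part nor that of the epithelial markers, given above, in the values of ERBB3 was tested.

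Other Schwann cell and glial genes had a mixed course with age. Of 20 tested, 0 passed in either direction between CF and WT, where 0.766% of all tested genes did, and nothing is read from this count. Their median log2 fold change was 0.46 against 0.01 over all tested genes (0.38 against 0.00 where groups with no counts were set at a floor of 3 counts). Over the 5 ages 9 of 20 passed, against 17.9% of all tested genes. NCAM1, a neural adhesion molecule, fell with a log2 fold change of -2.92 at day 147 against day 65, and FABP7, a fatty acid binding protein of immature glia, of -2.69, while S100B, a calcium binding protein also made by cartilage, rose by 2.15. The cartilage markers (8 of 9 found, none at 0) summed to 1839 to 2661 CPM in CF and 1405 to 3998 CPM in WT at day 147, against 727 to 1016 CPM in CF and 1142 to 1198 CPM in WT at day 65. Their part in the course of S100B was not tested. NCAM1 was highest, at 93.8 CPM, in CF day 80 replicate 1, which held skeletal muscle. At day 65 NCAM1 was at 43.7 CPM in WT replicate 2, which also held muscle markers, and at 40.0 CPM in WT replicate 1. In CF it was at 19.8 and 30.9 CPM at that age. The part of muscle in the fall of NCAM1 was not tested. Of the 7 tested neuregulins and their receptors 0 passed between genotypes (0.766% of all tested genes). NRG3 and NRG1 were the 2 that passed over the ages (17.9% of all tested genes). NRG1, the neuregulin that signals to Schwann cells, averaged 13.2 ± 7.55 CPM in CF and 8.94 ± 4.10 CPM in WT (SD, n = 10 each), with a log2 difference of 0.59 ± 0.21 (SE; adjusted p = 0.292, edgeR).

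NGFR fell steeply before birth in both genotypes. The CF libraries were at 15.4 and 36.5 CPM at day 65, 32.8 and 30.1 at day 80, 13.8 and 15.2 at day 100, 8.93 and 8.22 at day 120, and 2.29 and 3.37 at day 147. The WT libraries were at 16.9 and 31.6 CPM at day 65, 26.3 and 20.7 at day 80, 4.77 and 2.85 at day 100, 9.59 and 8.47 at day 120, and 3.05 and 3.23 at day 147. In each genotype both day 147 libraries were below both day 65 libraries, and the WT day 100 pair was nearly as low as the WT day 147 pair. The log2 fold change of day 147 over day 65 was -3.20 ± 0.44 (SE) in CF and -2.95 ± 0.44 in WT, with adjusted p-values of 0.00157 and 0.00216 (edgeR). The difference between these changes, -0.25 ± 0.58, did not pass (adjusted p = 0.950). Markers of airway basal cells, which also make NGFR, did not fall with it in CF: their sum (8 of 8 found, none at 0) was 4338 and 4480 CPM at day 147 against 2582 and 1939 CPM at day 65 in CF, and 1636 and 4460 CPM against 2496 and 1621 CPM in WT. Their part in the result was not tested.

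Averaged over the ages, NGFR was 16.7 ± 12.3 CPM in CF and 12.8 ± 10.5 CPM in WT (SD, n = 10 each), and the log2 difference of 0.45 ± 0.18 (SE) did not pass (adjusted p = 0.374, edgeR). Among 14 tested neurotrophin and GDNF family ligands and receptors, 0 passed between CF and WT (0.766% of all tested genes) and 4 passed over the ages (17.9%). At day 147 against day 65 the log2 fold changes of these 4 were -2.06 for GFRA2, the receptor for neurturin, -1.60 for GFRA1, the receptor for GDNF, -1.42 for the ligand BDNF and -0.93 for NTRK3, the receptor of neurotrophin 3. NTRK3 passed over the 5 ages but not between day 147 and day 65 (adjusted p = 0.0843).

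PHOX2A, the autonomic neuron factor, was almost gone at birth. In CF its counts were 51 and 122 at day 65, 26 and 37 at day 80, 18 and 9 at day 100, 4 and 4 at day 120, and 0 and 2 at day 147. In WT they were 59 and 17 at day 65, 24 and 30 at day 80, 0 and 0 at day 100, 6 and 8 at day 120, and 1 and 4 at day 147. In CPM the groups averaged 1.35 ± 0.879 (SD, n = 2) at day 65 in CF and 0.544 ± 0.288 in WT, and no group exceeded 0.204 CPM from day 100 on. CF day 65 replicate 2, which held liver genes, had the highest level at 1.97 CPM.

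In CF the day 147 pair held 2 counts of PHOX2A against 173 in the day 65 pair, 82.9-fold lower with a counting interval from 22.6-fold to 689.6-fold (95%). In WT the day 147 pair held 5 counts against 76, 11.7-fold lower with a counting interval from 4.79-fold to 37.0-fold. These intervals take every count as independent and leave out the scatter between replicates. They would be wider if both reads of a pair were counted. The fitted change passed in CF (adjusted p = 0.00897, edgeR) and did not pass in WT (adjusted p = 0.0669), and the difference between these changes did not pass either (adjusted p = 0.914). Over the mean of the ages PHOX2A was 0.459 ± 0.603 CPM in CF and 0.228 ± 0.246 CPM in WT (SD, n = 10 each), with a log2 fold change that did not pass (adjusted p = 0.346) and whose size depends on the empty WT day 100 pair. With that pair set at 3 counts it was 0.63, and with day 100 left out it was -0.13.

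Some other genes of autonomic neurons also fell. Of 19 tested, 6 passed over the ages, against 17.9% of all tested genes. At day 147 against day 65, 13 of the 19 had a negative log2 fold change, where 10345 of all 20097 tested genes did. Of the 19, 5 were called lower and 1 higher, against 9.86% lower and 8.77% higher of all tested genes. SLC18A3, the transporter that fills vesicles with acetylcholine, had no counts in any day 147 library. At day 65, SLC18A3 was at 1.21 and 2.77 CPM in CF and 1.04 and 0 CPM in WT. SLC5A7, the choline transporter of cholinergic terminals, changed by -5.24 on the log2 scale.

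Between genotypes 1 of the 19 passed, higher in CF, where 0.458% of all tested genes were called higher. NPY, a cotransmitter of sympathetic neurons, averaged 1.76 ± 0.535 CPM in CF and 0.554 ± 0.532 CPM in WT (SD, n = 10 each). Its log2 fold change was 2.03 ± 0.41 (SE) with an adjusted p of 0.0426 (edgeR). No fit under other settings is reported here for NPY, and the calls of this comparison depend on the settings, as given below. Both CF libraries were above both WT libraries at days 65, 80, 120 and 147, where 23.8%, 11.5%, 8.91% and 15.6% of tested genes showed that order, and at day 100 both were below both (30% of tested genes), at 0.974 and 1.11 CPM in CF and 1.64 and 1.17 CPM in WT. The median log2 fold change of the 19 genes in CF over WT was 0.37, or 0.22 with empty groups at the floor.

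NEFL, the light neurofilament subunit, had the sixth smallest p of all 20097 genes for the change between birth and day 65. CF libraries showed 8.20 and 9.96 CPM at day 65, 2.77 and 4.36 at day 80, 1.25 and 1.45 at day 100, 1.34 and 0.806 at day 120, and 0.281 and 0.414 at day 147. WT libraries showed 9.66 and 6.97 CPM at day 65, 6.34 and 5.90 at day 80, 2.81 and 3.22 at day 100, 1.35 and 1.08 at day 120, and 0.522 and 0.486 at day 147. The level dropped at each successive age in both genotypes, and its log2 fold change of day 147 over day 65 was -4.70 ± 0.45 (SE) in CF and -4.04 ± 0.44 in WT (adjusted p = 0.000341 and 0.000484, edgeR). Both CF libraries were below both WT libraries at days 80, 100 and 147, where 10.8%, 30% and 15.6% of tested genes showed that order. Over the mean of the ages NEFL was 3.08 ± 3.41 CPM in CF and 3.83 ± 3.19 CPM in WT (SD, n = 10 each), and the log2 difference of -0.50 ± 0.18 (SE) did not pass in edgeR (adjusted p = 0.273) but did in DESeq2 (-0.52, adjusted p = 0.0392).

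NEFM, the medium subunit, is the neighbour of NEFL on chromosome 2: NEFL spans 40553468 to 40559046 on the plus strand and NEFM 40584803 to 40590237 on the minus strand, 25756 bases apart with 0 genes between them. It was at 4.97 and 5.74 CPM in CF at day 65, 5.50 and 4.75 at day 80, 2.01 and 1.66 at day 100, 4.51 and 3.71 at day 120, and 1.49 and 2.53 at day 147. It was at 7.92 and 7.68 CPM in WT at day 65, 8.31 and 3.94 at day 80, 11.1 and 8.31 at day 100, 8.33 and 5.85 at day 120, and 3.50 and 2.83 at day 147. Both CF libraries were below both WT libraries at every age but day 80, where WT replicate 2 at 3.94 CPM was lower than either CF library. The share of all tested genes in that order was 23.7%, 30%, 7.61% and 15.6% at those ages (days 65, 100, 120 and 147).

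The log2 fold change of NEFM in CF over WT was -0.93 ± 0.18 (SE) over the mean of the ages, with an adjusted p of 0.0375 (edgeR). NEFM and ACHE were the 2 of the 7 genes called in this comparison, 1 lower and 1 higher, where 0.766% of all tested genes were called, 0.309% lower and 0.458% higher. ACHE was chosen for this difference, so its call is a description, and nothing is read from the count. The call on NEFM was kept in only 3 of the 20 fits that each left out 1 library, those without WT day 80 replicate 1, WT day 80 replicate 2 or WT day 147 replicate 1; the fold change stayed between -1.03 and -0.81 and the adjusted p ran from 0.0144 to 0.118. It rested most on day 100, without which the difference was -0.56 (adjusted p = 0.714). Day 100 was also the only age at which NEFM passed by itself, with a log2 fold change of -2.40 ± 0.42. At day 147 against day 65 NEFM changed by -1.41 ± 0.41 in CF and -1.30 ± 0.41 in WT, a change that passed over the mean of the genotypes (-1.36 ± 0.29, adjusted p = 0.00650) and in neither genotype alone (adjusted p = 0.0687 and 0.0671).

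Other neuronal genes also fell with age. Of 21 tested pan-neuronal genes, 10 were called lower and 0 higher at day 147 against day 65, where 9.86% of all tested genes were called lower and 8.77% higher. They had a median log2 fold change of -1.56 against -0.03 over all tested genes (-1.69 with empty groups at the floor). PRPH, the intermediate filament of peripheral neurons, changed by -6.19 ± 0.57 (log2, SE; adjusted p = 3.18e-05, edgeR). STMN2, a growth cone protein, changed by -6.37, INA, an internexin that assembles with neurofilaments, by -4.49, and the RNA binding protein ELAVL2 by -4.40. Their summed level was 59.8 and 38.6 CPM at day 147 against 139 and 176 CPM at day 65 in CF, and 28.9 and 27.2 CPM against 144 and 125 CPM in WT. UCHL1 held much of the day 65 sum, at 61.3 and 63.0 CPM in CF and 49.1 and 54.4 CPM in WT. At day 147 UCHL1 was at 3.57 and 2.91 CPM in CF and 3.26 and 11.1 CPM in WT. SCN9A was then at 27.4 and 10.5 CPM in CF and 9.80 and 0.376 CPM in WT. Between CF and WT 0 of 21 passed, where 0.766% of all tested genes did. Of the 21, 18 had a positive log2 fold change, where 10229 of all 20097 tested genes did. The median of the 21 was 0.57 (0.48 with empty groups at the floor), against 0.01 over all tested genes. NEFL and NEFM thus stood on the negative side while most neuronal genes stood on the positive side, and no test of that contrast was made. Of 9 tested sensory neuron genes 0 passed between genotypes (0.766% of all tested genes). Over the ages 3 passed (17.9% of all tested genes), PIEZO2, CALCA and TAC1. At day 147 against day 65 PIEZO2, a mechanically gated channel, fell (-2.43) and CALCA, the gene of calcitonin and CGRP, rose (3.08). TAC1, the substance P precursor, had 0.27.

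**Figure D2:**
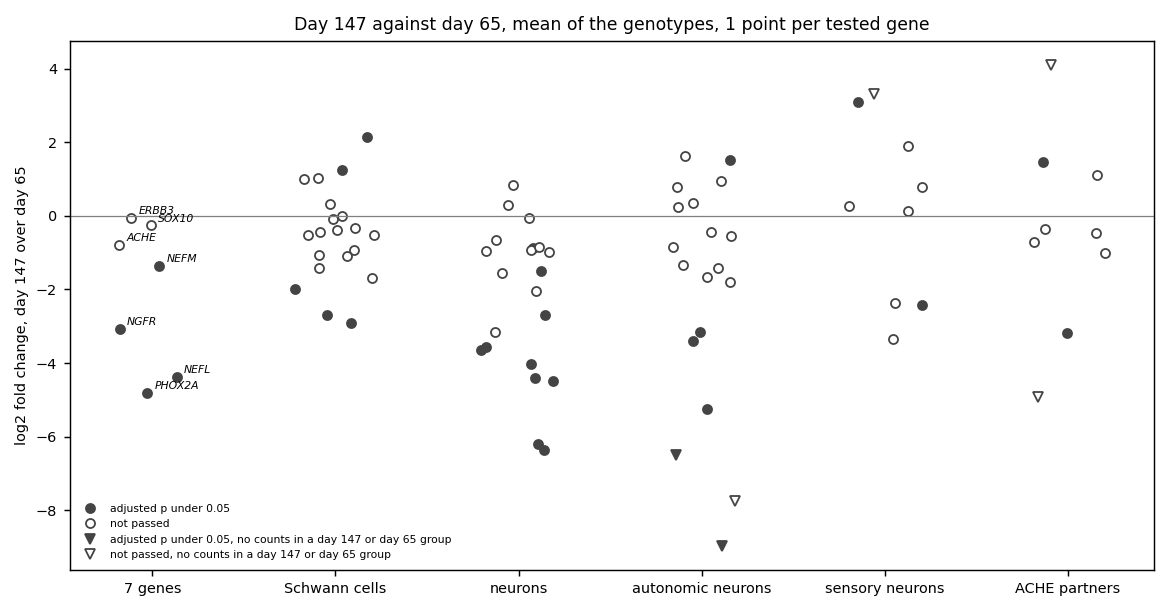
Log2 fold change of day 147 over day 65, averaged over CF and WT, with 1 point per tested gene for the 7 genes and 5 lists of related genes; filled symbols had an adjusted p under 0.05 (edgeR) and triangles mark genes with no counts in a day 147 or day 65 group, whose fitted values are no bounds. NGFR (-3.07), NEFL (-4.37), PHOX2A (-4.81) and NEFM (-1.36) are filled and below 0, as are 10 of 21 pan-neuronal genes.

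Over the mean of the genotypes 4 of the 7 genes were called between day 147 and day 65, all lower, where 18.6% of all tested genes were called, 9.86% lower and 8.77% higher. NGFR changed by -3.07 ± 0.31 (log2, SE; adjusted p = 5.10e-05, edgeR), NEFL by -4.37 ± 0.32 (adjusted p = 1.28e-05) and PHOX2A by -4.81 ± 0.79 (adjusted p = 0.00147). With 1 library left out the value of PHOX2A ran from -6.31 to -4.37, the first without CF day 147 replicate 2, after which the CF day 147 group held no count. ERBB3 (-0.05 ± 0.25), SOX10 (-0.26 ± 0.75) and ACHE (-0.78 ± 0.54) did not pass, and the SE of SOX10 leaves room for a change of a few fold either way. In CF 3 of the 7 were called, where the background was 5.49% (3.71% lower, 1.78% higher), and in WT 2 were called, where it was 8.23% (4.53% lower, 3.7% higher). The difference between the developments passed for 0 of the 7, where it passed for 0.00498% of tested genes and 962 genes had an unadjusted p under 0.05. The test of any change over the 5 ages called the same 4 genes, NEFL (adjusted p = 3.33e-05), NGFR (0.000132), PHOX2A (0.00128) and NEFM (0.0344). ERBB3, with its dip at day 80, came to 0.0652, ACHE to 0.586 and SOX10 to 0.895.

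ACHE was the gene of the 7 whose genotypes stood furthest apart. CF libraries were at 7.66 and 20.1 CPM at day 65, 65.7 and 6.86 at day 80, 9.27 and 12.1 at day 100, 9.75 and 9.29 at day 120, and 7.58 and 7.27 at day 147. WT libraries were at 2.27 and 4.51 CPM at day 65, 2.35 and 1.32 at day 80, 3.55 and 3.10 at day 100, 4.60 and 3.80 at day 120, and 1.49 and 2.78 at day 147. Every CF library was above every WT library, the lowest CF value being 6.86 CPM and the highest WT value 4.60 CPM. Only 6 of the 20097 tested genes, 0.0299%, had all 10 CF libraries above all 10 WT libraries, and 0.0547% had all below. Both CF libraries were above both WT libraries at all 5 ages in 0.214% of tested genes, and below at all 5 in 0.169%. ACHE was brought into the group for being higher in CF, so these values describe it and are no test of it.

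Over the mean of the ages the log2 fold change of ACHE in CF over WT was 2.20 ± 0.35 (SE), and the medians were 9.28 CPM in CF and 2.94 CPM in WT. At day 65 it was 2.03 ± 0.79, at day 80 4.31 ± 0.87, at day 100 1.68 ± 0.78, at day 120 1.18 ± 0.77, then 1.80 ± 0.79 at day 147, and the test that it was the same at all ages did not pass (adjusted p = 0.805, edgeR). The value at day 80 rested on CF replicate 1, without which it was 1.92. Over the mean of the ages ACHE had an adjusted p of 0.0145 in edgeR, given as a description. It came to 0.0507 without WT day 65 replicate 1, 0.0562 without WT day 100 replicate 1, 0.0578 without WT day 100 replicate 2 and 0.0512 without WT day 120 replicate 2, with fold changes from 2.12 to 2.19.

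CF day 80 replicate 1, the library with 65.7 CPM of ACHE, held skeletal muscle. Its 15 skeletal muscle markers (of 16 looked for) summed to 38309 CPM, against 67.1 to 212 CPM in the other CF libraries and 18.2 to 1157 CPM in WT, and the alpha actin ACTA1 alone was at 5766 CPM. MYOD1 and MYOG, the defining muscle regulators, were at 24.1 and 90.5 CPM there and at 0 in 17 and 16 of the 20 libraries. Without this library the log2 fold change of ACHE was 1.70, and without all 4 libraries that held genes of other tissues it was 1.59 (adjusted p = 0.0407, edgeR). Among the other CF libraries ACHE was 6.86 CPM or more at muscle sums of 67.1 to 212 CPM. The WT library at 1157 CPM, day 65 replicate 2, also held skeletal muscle genes (MYH8 at 333 CPM, MYOG at 5.61 CPM), with ACHE at 4.51 CPM. DES, also counted among the smooth muscle markers, was 450 of 486 CPM in WT day 147 replicate 2. In CF day 147 replicate 1 it was 180 of 212 CPM. The part of muscle in the ACHE values was not tested.

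**Figure D3:**
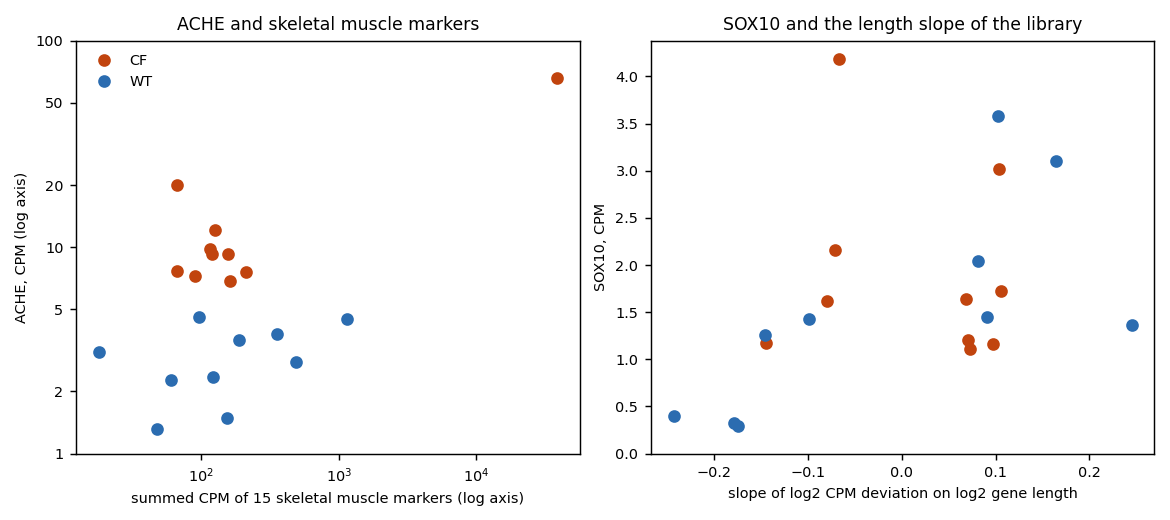
ACHE in CPM against the summed skeletal muscle markers in CPM, both on log axes, beside SOX10 in CPM against the slope of log2 level on log2 gene length, with 1 point per library. CF day 80 replicate 1 stands alone at 38309 CPM of muscle markers, the other 9 CF libraries lie above all WT libraries for ACHE at muscle sums from 67.1 to 212 CPM, and the lowest SOX10 levels lie at the lowest slopes.

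Among the genes that act with ACHE 0 of 9 were called higher in CF, where 0.458% of all tested genes were, so nothing is read from this count. Of 9 tested partners of ACHE and acetylcholine receptors, 1 passed between genotypes and was lower in CF, where 0.309% of all tested genes were called lower: CHRM1, a muscarinic receptor of glands and ganglia, averaged 0.733 ± 0.231 CPM in CF and 2.26 ± 2.19 CPM in WT (SD, n = 10 each). Its log2 fold change was -1.15 ± 0.23 (SE) with an adjusted p of 0.0388 (edgeR), and no fit under other settings is reported here for it. The WT day 147 libraries, at 7.25 and 5.04 CPM, stood above all others. COLQ, the collagen tail that anchors ACHE at the muscle endplate, was at 47.8 CPM in CF day 80 replicate 1, at 1.11 to 2.30 CPM in the other CF libraries and at 0.261 to 4.31 CPM in WT, and its difference of 1.39 ± 0.51 did not pass (adjusted p = 0.297). Of 10 tested genes of the neuromuscular junction 0 passed between genotypes (0.766% of all tested genes). Over the ages 2 passed, a share near the 17.9% of all tested genes. AGRN, the nerve-derived organiser of endplates, and RAPSN, which clusters acetylcholine receptors, were these 2, AGRN with a log2 fold change of -1.70 at day 147 against day 65 and RAPSN with -0.28. RAPSN was at 156 CPM in CF day 80 replicate 1, the library that held muscle, and at 6.59 CPM or less elsewhere. CHRNG, the fetal receptor subunit of muscle, chosen after its values were seen, was at 107 CPM in CF day 80 replicate 1 and at 5.69 CPM or less elsewhere.

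The gene next to ACHE on the same chromosome was not called. ACHE spans 35624173 to 35628836 on the plus strand of chromosome 24, and UFSP1, a protease that processes the ubiquitin-like UFM1, starts 21 bases beyond it. UFSP1 averaged 4.17 ± 0.793 CPM in CF and 5.07 ± 2.27 CPM in WT (SD, n = 10 each). Its log2 fold change of -0.25 ± 0.22 (SE) did not pass (adjusted p = 0.731, edgeR).

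**Figure D4:**
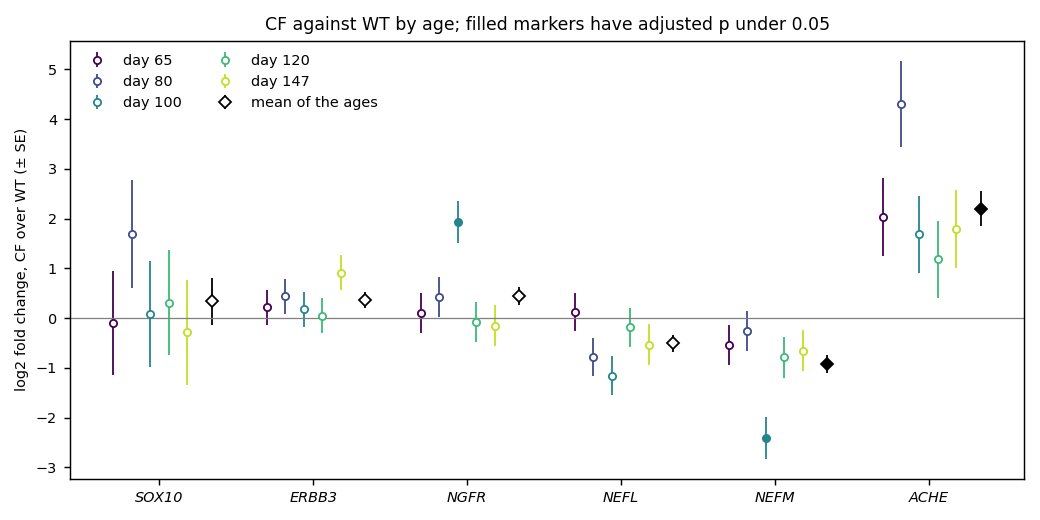
Log2 fold change of CF over WT with its SE at each age (circles) and over the mean of the ages (diamonds), for 6 of the genes; filled markers had an adjusted p under 0.05 (edgeR). PHOX2A is not drawn because WT had no counts at day 100. ACHE is above 0 at all 5 ages with its largest value, 4.31, at day 80, NEFM is below 0 at all 5 with its lowest, -2.40, at day 100, and NGFR stands out at day 100 with 1.93.

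Day 100 was the one age at which any of the 7 genes passed between genotypes in edgeR. At this age 3 of the 7 were called, NGFR and PHOX2A higher in CF and NEFM lower, where 1.46% of all tested genes were called, 1.4% higher and 0.0597% lower, and the median of all genes was 0.12. The genes were brought together as higher in CF, so the calls of NGFR and PHOX2A in that direction are a description, and nothing is read from the count. NGFR was 14.5 ± 0.989 CPM in CF and 3.81 ± 1.35 CPM in WT (SD, n = 2 each), with a log2 fold change of 1.93 ± 0.42 (SE; adjusted p = 0.0415, edgeR). Both CF libraries were above both WT libraries for NGFR and PHOX2A, as for 40.5% of tested genes at this age. PHOX2A had 27 counts in CF and 0 in WT, at least 9.58-fold higher when the WT pair is set at 3 counts (at least 4.79-fold at 6 counts, for the case that both reads of a pair were counted; adjusted p = 0.0460). NEFM was 1.83 ± 0.247 CPM in CF and 9.70 ± 1.96 CPM in WT (adjusted p = 0.0155). At day 65 0 of the 7 were called where 0.00995% of tested genes were, at days 80 and 120 0 where 0% were, and at day 147 0 where 0.0945% were (0.0498% higher, 0.0448% lower). The unadjusted p was under 0.05 for 682, 1924, 279 and 1592 genes at days 65, 80, 120 and 147. DESeq2 called 1 of the 7 at day 80, ACHE, and as its share over all tested genes is not reported here, nothing is read from this count.

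The WT day 100 libraries share a sample identifier, as do the CF day 147 libraries. With both of these pairs summed to 1 sample each, 0 of the 3 passed at day 100, with adjusted p-values of 0.426 for NGFR, 0.266 for PHOX2A and 0.177 for NEFM. Of the 20 fits that left out 1 library, 16 kept NEFM, losing it without any 1 of the 4 day 100 libraries (adjusted p up to 0.192). NGFR was kept in 6 of these fits (adjusted p from 0.0283 to 0.487), those without either WT or either CF library of day 65, WT day 80 replicate 2 or WT day 147 replicate 1. PHOX2A was kept in 4 (0.0381 to 0.403), those without WT day 80 replicate 2, either WT library of day 147 or CF day 147 replicate 1.

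The WT day 100 libraries also differed from the CF ones in some markers of other parts of the wall. At this age cartilage markers summed to 570 and 723 CPM in CF and 233 and 209 CPM in WT. Smooth muscle markers (7 of 8 found, none at 0) summed to 1100 and 1066 CPM in CF, between the WT libraries, which lay far apart at 1539 and 91.7 CPM. Epithelial markers summed to 2943 and 2629 CPM in CF and 5750 and 5340 CPM in WT, and basal cell markers to 2883 and 3482 CPM in CF and 5559 and 4847 CPM in WT. Their part in the result was not tested. SOX10, at 1.64 and 1.20 CPM in CF and 1.26 and 1.43 CPM in WT, overlapped between the genotypes at this age.

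Whether the genotype difference was the same at all ages was tested for each gene. It passed for 0 of the 7 in edgeR, where 0.0697% of tested genes passed and 1464 had an unadjusted p under 0.05, among them PHOX2A (0.00729), NGFR (0.0198) and NEFM (0.0208). DESeq2 called 2 of the 7, PHOX2A and NEFM. Its share over all tested genes is not reported here, so nothing is read from this count. The larger differences at day 100 are thus not shown by edgeR to differ from those at other ages.

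The genes whose log2 CPM was most like that of each of the 7 over the 20 libraries differed from gene to gene. These correlations describe libraries that also share depth, age and tissue content. NGFR was nearest to CDH7, a cadherin of neural crest cells in the chick (Pearson's r = 0.966, Spearman's rho = 0.938), and to NT5DC2 (r = 0.954). NEFL was nearest to MCM2, a subunit of the helicase that starts DNA replication (r = 0.950, rho = 0.941), and to HELLS, a chromatin remodeller (r = 0.948), followed by BORA, USP1 and NUSAP1. PHOX2A was nearest to VAT1L (r = 0.946, rho = 0.947) and ERBB3 to SIX4, a homeobox factor (r = 0.930, rho = 0.872), and LGR4, an R-spondin receptor (r = 0.910). The likeness was lower for SOX10, nearest to ABTB2 (r = 0.870, rho = 0.678), and for NEFM, for which CELF4, an RNA binding protein of neurons, was among the nearest 5 (r = 0.773, rho = 0.797). ACHE was nearest to TEX14 (r = 0.846, rho = 0.851), STRIT1, a regulator of the muscle calcium pump (r = 0.816), and COLQ (r = 0.763), the last of which stood at 47.8 CPM in the library that held muscle. None of the 7 was among the nearest 5 of another.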

How the data were processed

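The submitters' processing notes name STAR 2.6, Subread and its counter featureCounts 1.6.3. The authors deposited raw counts for each gene, with positions and summed exon lengths per the file headers; genome build, annotation and strand setting: not given in the sources used here. Of 24478 genes, 8432 carry an identifier, and 501 of these took a symbol from RefSeq (ARS-UI_Ramb_v3.0, names only). Samples were grouped by title.

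Counts were tested with edgeR 4.0.16 in R 4.3.3 (filterByExpr over 10 groups, 20097 genes; TMM; robust glmQLFit with 1 coefficient per group over all 20 samples; Benjamini-Hochberg over all tested genes, threshold 0.05). SE are the log2 fold change over the root of F. CPM use TMM library sizes. Positions are the authors'. The test was checked on simulated counts. Replicates of a group differed by a chi-square per gene of 37.6 to 1662, so none was a copy. Even numbers made up 70.7% to 85.3% of a library's counts from 1 to 20 and 50.1% to 58.3% of those of at least 1000, so both reads of a pair may have been counted. Floors and counting intervals cover counting error only.

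The 7 genes and 20 other lists (212 of 224 entries found) were chosen with earlier results of these data known. Named genes are the 7, the 5 most correlated with each (log2 CPM, prior count 2), and up to 4 per list, called between genotypes first and over the ages next; the text names fewer, and a few of them are not reported here. Alternatives were DESeq2 1.42.0, other scaling, no filter, a replicate block, summed pairs, and libraries or ages left out.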

Additional observations from a re-analysis of the deposited data

Results flagged for a closer look

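Among the 10 CF libraries, CF day 80 replicate 1 stood apart for ACHE at 65.7 CPM, where the next value was 20.1 CPM. The gap was 0.775 of the whole range, above Dixon's 95% critical value for 10 samples. It is the library with 38309 CPM of skeletal muscle markers, and its ACHE level is described with them above.

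CF day 65 replicate 2 stood apart for PHOX2A at 1.97 CPM, where the next CF library, replicate 1 of the same age, had 0.724 CPM. The gap was 0.632 of the range. This library also held liver markers at 18461 CPM, and its pan-neuronal genes summed to 176 CPM against 139 CPM in replicate 1. The 10 libraries of a genotype span 5 ages, over which PHOX2A fell. Both values come from 14 groups examined, 7 genes in 2 genotypes, and chance flags about 1 in 20 groups.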

How the results depend on the processing

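In the comparison of CF with WT averaged over the ages, the number of the 7 genes called was 2, and it became 1 with a replicate block, 0 with samples of a shared identifier summed, 1 without the 4 libraries holding other tissue, 0 without the 5 libraries of low length slope (chosen after seeing the data), 1 without day 65, 0 without day 100, 0 without day 120 and 1 without day 147, and it ran from 0 to 2 with 1 library left out. Under the same settings the calls among all tested genes were 154 in the reported fit, 103 with the block, 2 with summed pairs, 49, 387, 54, 12, 72 and 83. The fold change of NEFM was -0.91 with the block (adjusted p = 0.0551), -0.93 with summed pairs (0.190), -1.06 without the 4 libraries (0.0891) and -0.87 without those of low slope (0.0523); that of ACHE was 2.18 with summed pairs (0.140), 2.37 without those of low slope (0.0737), 2.33 without day 100 (0.114) and 2.43 without day 120 (0.0512). At day 80 the count was 0, against 1 with DESeq2, and 0 to 1 with 1 library left out. At day 100 it was 3, against 4 with DESeq2 (NEFL added, -1.20, adjusted p = 0.0138), 2 without the 4 libraries (PHOX2A lost, adjusted p = 0.121), 2 with no filter (PHOX2A lost, 0.0515), 1 with RLE size factors, 1 with the replicate block, 0 with summed pairs, 1 without those of low slope and 0 to 3 with 1 library left out. For day 147 against day 65 it was 2 in WT, against 4 with DESeq2 and 4 with library size alone, and 2 to 3 with 1 library left out; 2 to 4 in CF; 4 in all 20 such fits over the mean of the genotypes; and 3 to 5 for any change over the ages. The test of equal genotype differences gave 0, against 2 with DESeq2. Calls among all tested genes under other settings are reported here only for the comparison averaged over the ages. Nothing is read from the counts of the other comparisons. SOX10 in CF over WT turned to -0.11 without the low slopes and to -0.016 without day 80, and PHOX2A to -0.13 without day 100. At day 147 against day 65, SOX10 turned to 0.51 without the 4 libraries and to 0.18 without the low slopes (-1.42 to 0.18 with 1 library left out), and ERBB3 to 0.032 without the low slopes (-0.19 to 0.10). Fewer samples enter the fits that leave out libraries; otherwise the cause was not tested. Replicate numbers do not pair the samples: deviations of same-numbered CF and WT libraries correlated at 0.10, -0.13, -0.05, -0.53 and 0.25 at the 5 ages. PHOX2A rests on at most 8 counts per library from day 120 on, so differences among the groups of days 120 and 147 cannot be judged from so few counts.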
